A study of Mus musculus with 8 samples.

Results

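The genes described here act on MHC class II after it has been transcribed. They are March1 and March8, which encode ubiquitin ligases, Cd83, the endosomal proteases Ctss and Lgmn, and the reductase Ifi30. These 6 were chosen by symbol, and every non-control probe that carries 1 of the symbols was taken. This gave 9 of the 56605 probes on the array and 6 of the 28003 genes tested. All 6 genes passed the filter on dim probes, and each had its brightest probe well above background on all 8 arrays.

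The samples were macrophages sorted by flow cytometry from pancreas tumours into an MHCII-low and an MHCII-high fraction, with 4 samples and 4 arrays per fraction. All came from female mice aged 8 to 10 weeks of a strain given as FvBn, into which tumours had been implanted. Nothing in the labels separates the groups other than the MHCII gate. The genotype is listed as not provided, and the series' design text names normal pancreas and tumours of wild-type, KPC and FLT3-CRE/LSL-YFP mice without saying which of these the 8 samples belong to. Other gates of the sort, the tumour line implanted and how many animals make up a sample were not stated. Each fraction holds the label numbers 20435, 20436, 20439 and 20442 once, and what these numbers mark is not stated. No source used here says that the samples of a fraction are from different animals. The p-values therefore reflect the spread among the samples at hand, which could be technical.

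MHC class II is a pair of chains that displays peptides to CD4 T cells. In the endoplasmic reticulum the pair is closed by the invariant chain, Cd74, which legumain (Lgmn) and the cathepsins cut down in endosomes until cathepsin S (Ctss) leaves only a short peptide in the groove. Ifi30, also called GILT, reduces disulphide bonds of antigens in the same compartments so that they can be unfolded and cut. At the cell surface, the membrane-bound RING ligases MARCH1 and MARCH8 attach ubiquitin to the tail of the class II beta chain, which sends the complex inward to lysosomes. CD83 opposes MARCH1 and thereby keeps class II and CD86 at the surface of activated dendritic and B cells. Interleukin 10 is known to induce March1 in myeloid cells.

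The array reads each gene through probes of 60 bases, and the first 30 bases of each are shown for the ligases and Cd83, because the results below turn on which probe stands for the gene. Capitals mark runs of alternating A and C, and the other letters are the rest of the probe, 5′ to 3′. Coordinates cover the whole probe and are given on mm9, as in the files. Exons and UTRs of that build were not looked up here.
March1, probe A_55_P2131979, chr8:68992804-68992863, plus strand: aaatgACACACACACACgCACACACACACA
March1, probe A_52_P64538, chr8:68491716-68491775, plus strand: aaacttaacacagtttctaatattctctat
March8, probe A_51_P200586, chr6:116359263-116359322, plus strand: gggagtgagtgacgaaggcatgtaactggt
March8, probe A_55_P2076303, chr6:116359497-116359556, plus strand: atttgtttgtgctatatacggggtgtctaa
March8, probe A_55_P2625705, chr6:116356255-116356314, plus strand: aataaagaaggacatggaatgtgtcattcc
Cd83, probe A_51_P199135, chr13:43898276-43898335, plus strand: agctattgcgccacgacaggaggaagttct
The 3 March8 probes all name the same RefSeq transcript in the files and lie at separate places. Whether each lies in an exon of that transcript was not looked up. The March1 probes name different transcripts, and the longest A and C run of the brighter one is 12 bases against 5 or fewer in every other probe of the 6 genes.

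Ctss, Lgmn and Ifi30 are each read by 1 probe. These lie on chromosome 3 at 95360162 to 95360221 (plus strand), on chromosome 12 at 103632415 to 103632474 (minus strand) and on chromosome 8 at 73287747 to 73288473 (minus strand). The Ifi30 probe is 60 bases long but spans 727 bases of the genome.

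Values are log2 processed signals minus the 75th percentile of their array, so 0 is the signal at that percentile. Differences are MHCII-high minus MHCII-low on that log2 scale, tested with limma across all 28003 genes with Benjamini-Hochberg adjustment and a threshold of 0.05. Across all genes 1385 (4.95%) passed, 755 of them higher in MHCII-high (2.7%) and 630 lower (2.25%). The median difference of all genes was 0.0068 and the quartiles were -0.27 and 0.28. Between 38758 and 42121 probes per array were well above background (68.5% to 74.4%). Precision is set by how few arrays there are. A single slide, scanned once, carried the 8 arrays in 2 rows. Row 1 held 3 MHCII-low arrays and MHCII-high 20436, and row 2 held 3 MHCII-high arrays and MHCII-low 20442.

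None of the 6 genes passed the adjusted threshold in the comparison of MHCII-high with MHCII-low macrophages. March8 had lower signals and Cd83 higher signals in MHCII-high, each without overlap between the fractions. March1, Ctss, Lgmn and Ifi30 overlapped between the fractions. The count past the threshold was thus 0 of 6, beside 4.95% of all genes, with limma. At an unadjusted p under 0.05 it was 2 of 6 (19.6% of all genes), and the same 2 were the genes whose groups did not overlap (14.4% of all genes). The median difference of the 6 was -0.06.

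**Figure D1:**
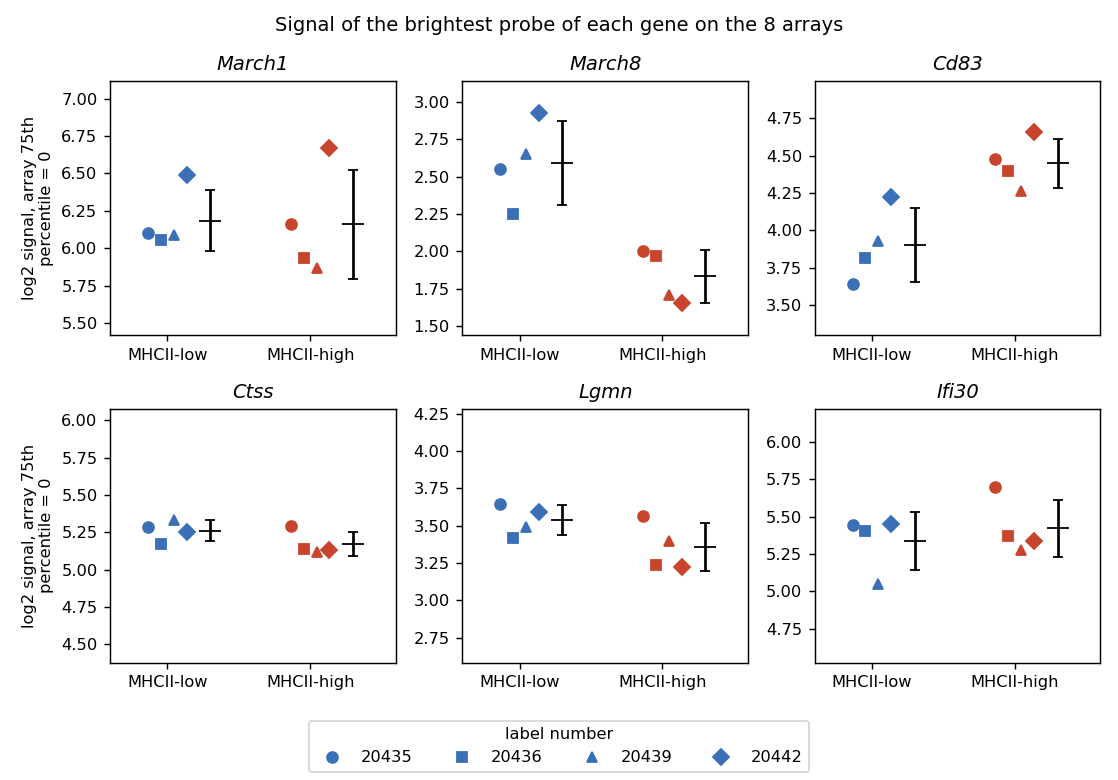
Log2 signal (array 75th percentile = 0) of the brightest probe of each of the 6 genes on the 8 arrays, in blue for MHCII-low and red for MHCII-high, with 1 marker shape per label number. Horizontal ticks and bars are the mean and SD of 4 arrays, and every panel spans the same range of log2 units. The fractions separate for March8 and Cd83 and overlap for the other 4 genes.

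March8, the broadly expressed relative of March1, was lower in MHCII-high on all 3 of its probes. On the brightest, A_51_P200586, the MHCII-low samples 20435, 20436, 20439 and 20442 read 2.55, 2.25, 2.65 and 2.93, and the MHCII-high samples of the same numbers read 2.0, 1.97, 1.71 and 1.65. The groups did not overlap, as was so for 6.85% of all genes in this direction, and the nearest samples were MHCII-low 20436 and MHCII-high 20435. The means were 2.59 ± 0.28 (SD, n = 4) and 1.83 ± 0.18 (SD, n = 4), a difference of -0.76 or 1.69-fold lower (95% interval 1.27 to 2.25). The limma p was 0.00264 before and 0.0521 after adjustment, just beyond the threshold. A larger difference in either direction was found for 14.7% of all genes, while 123 of the genes that passed had a smaller one.

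The second March8 probe, A_55_P2076303, read 1.38, 0.98, 1.53 and 1.81 in MHCII-low and 0.69, 0.57, 0.63 and -0.06 in MHCII-high, in the same order of label numbers. Its difference was -0.97 (95% interval -1.51 to -0.42), or 1.95-fold lower. The dimmest probe, A_55_P2625705, read -0.83, -0.92, -1.02 and -0.78 in MHCII-low and -2.79, -1.92, -2.52 and -3.33 in MHCII-high. Here the MHCII-low samples lay within a narrow band and the MHCII-high samples were spread out below it. The difference was -1.75 (95% interval -2.40 to -1.11), or 3.37-fold lower (2.15 to 5.28).

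With every probe of the array tested on its own, a choice made after seeing the data, 2.97% of probes passed and of the March8 probes only the dimmest did. Its limma adjusted p was 0.0209, against 0.0805 and 0.068 for A_55_P2076303 and the brightest. All 3 probes were well above background on all 8 arrays, and on each of them MHCII-high 20442 was the lowest sample and MHCII-high was below MHCII-low for 4 of 4 label numbers. The probe differences were 0.99 apart between the dimmest and the brightest (exact permutation over 70 assignments, two-sided, p = 0.0286, the smallest it can give, and 0.0571 adjusted over 2 comparisons). Between A_55_P2076303 and the brightest they differed by 0.21 (exact permutation p = 0.2). These 2 comparisons were also added after seeing the data. The 3 probes share their samples and the transcript named for them and are not replicates of each other.

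**Figure D2:**
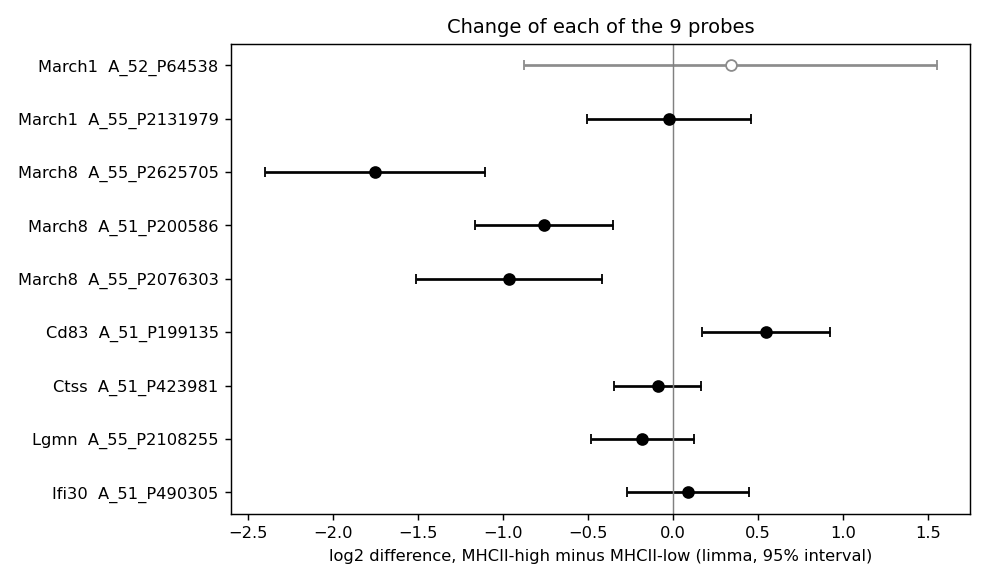
Log2 difference, MHCII-high minus MHCII-low, of each of the 9 probes of the 6 genes, with 95% intervals from limma fitted over all probes. The 3 March8 intervals lie wholly below 0 and the Cd83 interval wholly above it, while the grey open point, March1 probe A_52_P64538, was well above background on 1 of 8 arrays.

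The March8 difference kept its direction within both slide rows, at -0.51 in row 1 and -1.14 in row 2, where each value rests on a single array of a fraction. With the row as a block it was -0.83 (limma adjusted p = 0.119). Some other ways of processing moved the gene past the threshold without turning the direction. The limma adjusted p was 0.0195 after normexp background correction and 0.0173 for the mean of the 3 probes, which includes the dimmest. It was 0.0278 to 0.0409 with quantile normalization, the authors' series table, array weights or only probes well above background on all 8 arrays. March8 stayed short when arrays were scaled to their median (0.0762), dim probes were kept (0.0674) or label numbers were blocked (0.144). Of the 8 fits that leave out 1 array, 1 passed.

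March1, the ligase known for class II turnover in dendritic cells, B cells and macrophages, showed no separation of the fractions on its brighter probe. A_55_P2131979 read 6.10, 6.06, 6.09 and 6.49 in MHCII-low 20435, 20436, 20439 and 20442, and 6.17, 5.93, 5.87 and 6.67 in MHCII-high. In both fractions the sample numbered 20442 was the highest. The difference was -0.03 (95% interval -0.51 to 0.46, limma adjusted p = 0.963), which spans a ratio of 0.704 to 1.37. The sign of this difference changed with the sample left out, over a range of -0.20 to 0.08.

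This probe carries the A and C runs printed in capitals above, and probes with such runs gave strong signals across the whole array. Among all 56605 probes the median log2 signal was -2.86 (quartiles -5.97 and -0.38). The 104 probes (0.184%) with a run of at least 10 alternating A and C, written ACACACACAC or CACACACACA in the probe, had a median of 5.10 (quartiles 2.99 and 6.01), and 57 of them (54.8%) were among the brightest 1% of probes. Of the 104, 96.2% were well above background on all 8 arrays, against 62.3% of all probes. The March1 probe was the 66th brightest of the array and the 15th of the 104. The 167 probes with the complementary run, GTGTGTGTGT or TGTGTGTGTG, had a median of 4.38. Between the fractions 0 of the 104 passed the adjusted threshold in limma and 1 had an unadjusted p under 0.05, beside 9135 of all 56605 probes, and their median difference was -0.07. Probes of different sequence are compared here as probes, not as gene levels, and how much of the A_55_P2131979 signal came from March1 transcripts was not tested.

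**Figure D3:**
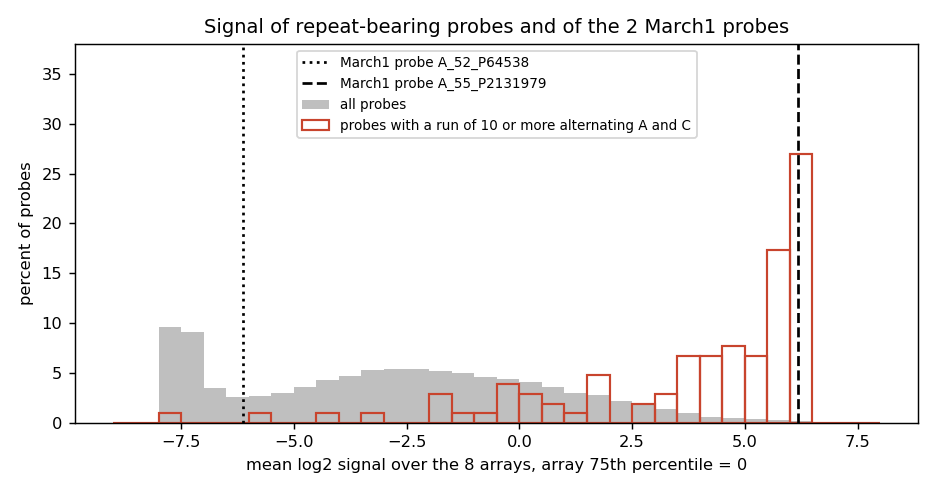
Percent of probes by mean log2 signal over the 8 arrays (array 75th percentile = 0), in grey for all 56605 probes and in red outline for the 104 probes with a run of at least 10 alternating A and C. The dashed line, March1 probe A_55_P2131979, falls in the red peak near the top of the range, and the dotted line, March1 probe A_52_P64538, falls near the lower end of the grey distribution.

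The second March1 probe holds no such run and was not well above background on 7 of the 8 arrays. A_52_P64538 read -5.44, -5.94, -6.30 and -7.50 in MHCII-low and -6.03, -5.45, -7.05 and -5.29 in MHCII-high, and of these only MHCII-high 20436 was well above background. The difference of 0.34 had an interval of -0.88 to 1.55 (limma adjusted p over all probes = 0.879). The 2 probes therefore bound a March1 difference between the fractions only loosely, the dimmer because of its signal and the brighter because its source was not tested.

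Cd83, a surface protein of activated antigen-presenting cells, had higher signals in MHCII-high. MHCII-low 20435, 20436, 20439 and 20442 read 3.64, 3.82, 3.93 and 4.23, and the MHCII-high samples of those numbers read 4.48, 4.40, 4.26 and 4.66. The fractions did not overlap, as was so for 7.57% of all genes in this direction, although MHCII-low 20442 and MHCII-high 20439 lay close together, and MHCII-high was above MHCII-low for 4 of 4 label numbers. The means were 3.90 ± 0.25 (SD, n = 4) and 4.45 ± 0.17 (SD, n = 4). The difference was 0.55, or 1.46-fold (95% interval 1.12 to 1.91), with a limma p of 0.0114 before and 0.116 after adjustment. It was 0.60 within slide row 1 and 0.24 within row 2, and 24.4% of all genes had a larger difference in either direction.

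Markers of dendritic cells, which carry much surface CD83 when mature, moved with the same comparison. Of all genes 2.7% were higher and 2.25% lower, and of 12 dendritic cell markers 10 were higher in MHCII-high and 0 lower (median difference 2.72). Their summed linear signal, relative to the 75th percentile, was 34.2 to 55.5 in MHCII-high and 13.5 to 17.9 in MHCII-low. Of 11 markers of mature migratory dendritic cells 5 were higher and 0 lower (median 1.39), with sums of 46.0 to 60.2 and 13.7 to 19.8. Among the defining genes, Flt3 rose by 4.47 and Ccr7 by 3.54, while Ccl22 stood well above background in 4 of 4 MHCII-high samples and 0 of 4 MHCII-low samples. Their other probes gave 0.26 for Flt3 and 3.15 for Ccr7.

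Of 9 tissue-resident macrophage markers 6 were lower in MHCII-high and 0 higher, beside 2.25% and 2.7% of all genes. The median of the 9 was -1.96, with sums of 26.3 to 49.2 against 89.6 to 104. With the row block 3 of these 6 calls were lost, those of Folr2 (limma adjusted p = 0.0809), Vsig4 (0.0804) and Marco (0.134), and without MHCII-low 20435 3 remained past the threshold. Of the dendritic cell calls, 8 of 10 and 4 of 5 passed with the row block. Of 11 general macrophage markers 1, Adgre1, was lower by 1.69 and the rest did not pass (median -0.31), with sums of 243 to 333 and 314 to 413. All 11 were well above background on the 8 arrays. Of 6 monocyte markers 1, Plac8, was higher by 1.75 and 0 lower (median 0.30), with sums of 19.3 to 29.5 against 36.6 to 42.7. The 5 that did not pass lay between -1.56 (Chil3) and 1.27, and 2 of the 6 were below 0. Of 9 epithelial and acinar markers 1, Cdh1, was higher by 1.73 and 0 lower (median -0.02), with sums of 5.34 to 31.6 against 12.2 to 20.8. The 8 that did not pass lay between -0.97 (Prss2) and 1.85, and 5 of the 9 were below 0. The Cdh1 call ended in 7 of the 8 fits that leave out 1 array (limma adjusted p up to 0.0962) and with the row block (0.0607). Of 8 T and NK cell, 7 neutrophil and 9 fibroblast and endothelial markers, 0 passed in limma, beside 4.95% of all genes. At an unadjusted p under 0.05 there were 0, 1 and 0, beside 19.6% of all genes. Their medians were 0.04, -0.26 and -0.83, where all genes had a median of 0.0068, and 9 of the 9 fibroblast and endothelial markers were below 0. The sums, in the same order, were 6.58 to 9.78, 28.9 to 36.4 and 9.12 to 59.5 in MHCII-high and 5.57 to 10.03, 29 to 36.9 and 27.1 to 70.1 in MHCII-low. The part of these markers' cells in the March8 and Cd83 differences was not tested. In sorted bulk samples, fewer cells of a type and less RNA per cell cannot be told apart.

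The proteases and the reductase that prepare the class II groove gave bright signals that lay close together in the fractions. Ctss, which makes the last cut of the invariant chain, read 5.29, 5.17, 5.34 and 5.25 in MHCII-low 20435, 20436, 20439 and 20442 and 5.29, 5.14, 5.12 and 5.13 in MHCII-high. All 8 samples lay within the span from 5.12 to 5.34. The difference was -0.09 (95% interval -0.37 to 0.19, limma adjusted p = 0.732), a ratio between 0.772 and 1.14.

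Lgmn, an asparagine-specific protease that can start the trimming of the invariant chain, read 3.64, 3.42, 3.49 and 3.59 in MHCII-low and 3.57, 3.23, 3.40 and 3.22 in MHCII-high. The fractions overlapped, and MHCII-high was below MHCII-low for 4 of 4 label numbers. With the label number as a block the limma adjusted p was 0.554. The difference was -0.18 (95% interval -0.50 to 0.14, limma adjusted p = 0.524), a ratio between 0.706 and 1.1.

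Ifi30 read 5.44, 5.40, 5.05 and 5.45 in MHCII-low and 5.70, 5.37, 5.28 and 5.34 in MHCII-high. MHCII-low 20439 was the lowest and MHCII-high 20435 the highest sample, and the other 6 lay between 5.28 and 5.45. The difference was 0.09 (95% interval -0.28 to 0.45, limma adjusted p = 0.815), a ratio between 0.821 and 1.37. For these 3 genes the intervals leave out a doubling in either fraction.

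Whether genes of the set differed unequally was tested on 3 contrasts within arrays, each by an exact two-sided permutation over the 70 assignments of 8 arrays, whose smallest p is 0.0286. March1 minus March8 was 3.96 to 5.02 in MHCII-high and 3.44 to 3.81 in MHCII-low, a difference of 0.73 (exact permutation p = 0.0286, adjusted 0.0429). Cd83 minus March1 was -2.01 to -1.53 in MHCII-high and -2.46 to -2.16 in MHCII-low, a difference of 0.57 (exact permutation p = 0.0286, adjusted 0.0429). Both contrasts rest on the repeat-bearing March1 probe, so they share its values and set March8 and Cd83 against a signal whose source was not tested. Lgmn minus Ctss differed by -0.09 (exact permutation p = 0.229), and its ranges overlapped. With row as a block the first 2 contrasts were 0.62 (exact permutation p = 0.188) and 0.62 (exact permutation p = 0.0625, the smallest it can give), so with the row kept neither could have passed.

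Transcripts of the class II molecule on which these gene products act were higher in MHCII-high. Of 11 genes for class II chains, their chaperones and the transactivator, 10 rose and 0 fell, beside 2.7% and 2.25% of all genes. The median was 2.0 beside 0.0068 for all genes. H2-Oa and H2-DMb2, parts of the chaperones that control peptide loading, rose by 3.35 and 3.34, Ciita, the class II transactivator, by 3.03 and H2-Ob by 2.71. H2-DMb2 has a close copy, H2-DMb1, which its probe may also detect, and a further H2-Ob probe gave -0.48. Cd74, the substrate of Ctss and Lgmn, rose by 0.89 (limma adjusted p = 0.0285). It was singled out after its values were seen and lost the call in 6 of the 8 fits that leave out 1 array and with the row block (0.112). Because the fractions were sorted on MHC class II, this direction is no independent finding.

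**Figure D4:**
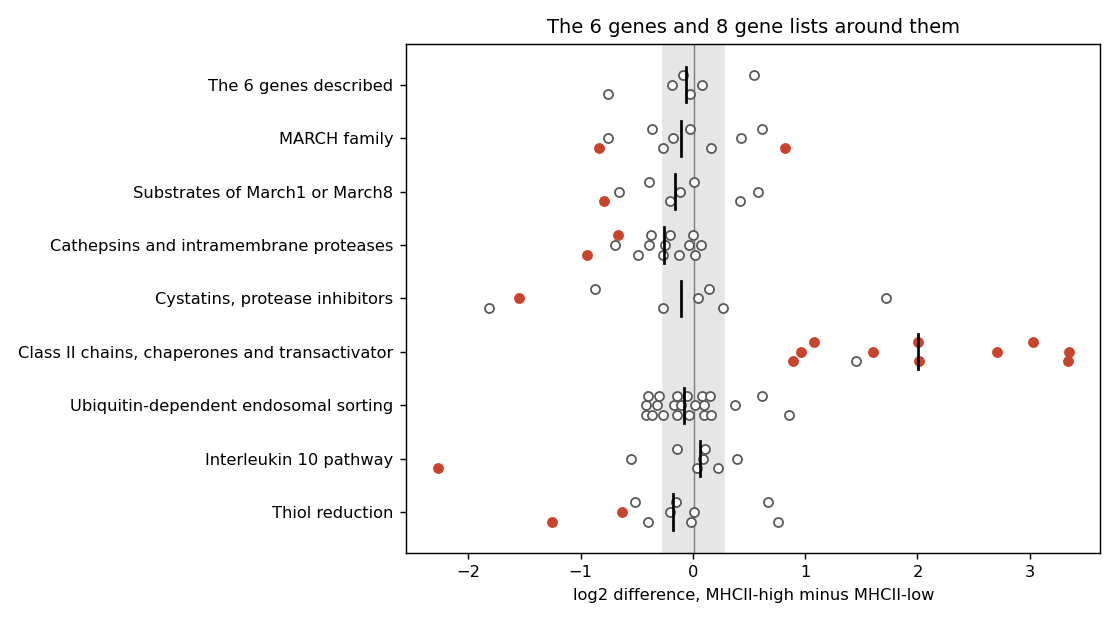
Log2 difference, MHCII-high minus MHCII-low, of the 6 genes and of the measured members of 8 gene lists around them, with 1 point per gene, filled in red where the limma adjusted p was under 0.05 and open otherwise. Black ticks are list medians and the grey band is the span between the quartiles of all 28003 genes, -0.27 to 0.28. The class II list lies to the right of the band, and the other list medians lie within it.

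Around March1 and March8, 1 gene of the MARCH family was higher, 1 was lower and 8 of the 10 measured did not pass. The median was -0.10, and of all genes 2.7% were higher and 2.25% lower. March7 rose by 0.82 (limma adjusted p = 0.0252) on its brightest probe, but its other probes gave 0.13 and -0.09. March9 fell by 0.84 (limma adjusted p = 0.0334), and its other probe gave 0.31. March9 is itself a ligase that removes membrane proteins, MHC class I among them. Leaving out 1 array ended the March7 call in 5 of 8 fits (adjusted p up to 0.0849) and the March9 call in 7 (up to 0.0962), and the slide row as a block ended both (0.0897 and 0.0747).

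Of 8 other membrane proteins known as substrates of March1 or March8, 0 rose and 1 fell, beside 2.7% and 2.25% of all genes. The median was -0.16. The one that fell was Bsg, or CD147, a companion of lactate transporters, by 0.79 (limma adjusted p = 0.0181). Cd86, the costimulatory ligand that MARCH1 removes together with class II, was at 0.42 (adjusted p = 0.314). The transferrin receptor Tfrc was at -0.66, and its other probe, well above background on 7 of 8 arrays, gave -1.18. The amino acid transporter chain Slc3a2 was at 0.01, the adhesion receptor Cd44 at -0.12 and the death receptor Fas at 0.58. The other Fas probes went the other way, at -0.70 and -1.15, and were well above background on all 8 arrays. Il1rap, a chain of the interleukin 1 receptor, was at -0.39 and the complement regulator Cd55 at -0.20. The other Cd55 probes gave -0.10, 0.32 and -0.55. The Bsg call ended without MHCII-low 20435 (0.0604), without MHCII-high 20439 (0.0649) and with the row block (0.079).

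In the machinery that carries ubiquitin-tagged cargo to lysosomes, 0 of 22 measured genes passed in limma in either direction, beside 4.95% of all genes. An unadjusted p under 0.05 was found for 4 of the 22, beside 19.6% of all genes. The median was -0.08. Their differences lay between -0.42 and 0.85.

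Among the other cathepsins and intramembrane proteases of the endocytic route, 0 of 14 rose and 2 fell, beside 2.7% and 2.25% of all genes. The median was -0.26 and 11 of the 14 were below 0, where all genes had a median of 0.0068. Ctsd, an aspartic protease abundant in macrophage lysosomes, fell by 0.94 (limma adjusted p = 0.0272), and Ctsf, a cysteine protease that can cut the invariant chain in macrophages, by 0.67 (adjusted p = 0.0436). Their calls ended with the row block (0.109 and 0.118), and leaving out 1 array ended that of Ctsd in 6 of 8 fits and that of Ctsf in all 8. The differences of the 12 others lay between -0.69 and 0.07.

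Of 8 measured cystatins, the inhibitors of such cysteine proteases, Stfa3 fell by 1.54 (limma adjusted p = 0.0057) and 0 rose. The median was -0.11, and of all genes 2.25% were lower and 2.7% higher. Stfa3 kept its call with the row block (0.0297) and in all 8 fits that leave out 1 array (up to 0.0248). The stefin A genes are near copies of each other, so its probe may also detect relatives.

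Of 10 genes of thiol reduction and disulphide exchange, the chemistry in which Ifi30 takes part, 0 rose and 2 fell. The median was -0.18, and of all genes 2.7% were higher and 2.25% lower. Ero1l, an oxidase that feeds disulphide bonds into the endoplasmic reticulum, fell by 1.25 (limma adjusted p = 0.0166), and P4hb, a protein disulphide isomerase, by 0.63 (adjusted p = 0.0325), with -0.70 on its other probe. The row block ended both calls (0.0787 and 0.128). Leaving out 1 array ended the P4hb call in all 8 fits, and the Ero1l call without MHCII-low 20435 (0.0508) and without MHCII-high 20439 (0.0554).

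In the interleukin 10 pathway 0 of 8 measured genes rose and 1 fell, beside 2.7% and 2.25% of all genes. The median was 0.06. The one that fell was Il10 itself, lower by 2.27 (limma adjusted p = 0.0452). Its signal stood well above background on 4 of 4 MHCII-low and 1 of 4 MHCII-high arrays, and it lost its call in all 8 fits that leave out 1 array (up to 0.109), with the row block (0.135) and with normexp background correction (0.111). The receptor chains Il10ra and Il10rb were at 0.11 and -0.55. The kinases Jak1 and Tyk2 were at -0.14 and 0.39, and the other Tyk2 probe, well above background on all 8 arrays, gave 1.37. Stat3, which carries the signal to the nucleus, was at 0.04. Its known targets Socs3 and Bcl3 were at 0.22 and 0.09.

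The genes whose pattern over the 8 arrays was most like that of each member were found by the root mean square difference of log2 signals after each gene's mean was taken off, among genes well above background on all 8 arrays. For March8 they were Atp6v1c1, a subunit of the vacuolar proton pump (0.0765), Mocs2 (0.0893) and Timp2, an inhibitor of matrix metalloproteases (0.09), beside a median of 0.512 over the 15095 genes compared. For Cd83 they were Csk, a kinase that restrains Src kinases (0.104), Psme1, a subunit of the proteasome activator PA28 (0.107), and Ppp4r3a (0.11), and the median was 0.44.

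For March1 the nearest were Arhgap17 (0.0437), Creb5 (0.0508) and Ccdc25 (0.051). Of these 3, Creb5 and Ccdc25 were read by probes with a run of at least 10 alternating G and T, which 0.295% of all probes hold, while 0 of the 15 genes nearest the other members had a run of either kind. This was looked up after the 3 genes were known, and its bearing on March1 was not tested. For Ctss the nearest were Atp5a1 (0.0389), a subunit of the mitochondrial ATP synthase, Eef1d (0.0394) and Rab8b (0.0474). For Lgmn they were the kinase Tec (0.0325), Chmp1a (0.0446) and Akr1b3 (0.0475), and for Ifi30 Brk1 (0.0689), Sh3bgrl3 (0.0694) and the tubulin chaperone Tbcb (0.07). These likenesses rest on 8 arrays that share a slide, and they are given as a description.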

How the data were processed

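Per the submitters' processing notes, the arrays were read with Agilent Feature Extraction 11.5.1.1. The deposited files give each spot's Cy5 intensity, linear and in 1 colour, with background subtracted and spatial trend removed in the processed signal, per the file headers. The authors' deposited series table is on a log2 scale, and how it was made is not given in the sources used here. Its array medians were 9.38137 to 9.38149, its scale and direction were those of the log2 processed signal (r of 0.998 or higher across probes), and it matched a quantile normalization, with no centring of genes.

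Of 62976 spots per array, 3671 controls and 67 to 160 outlier spots were dropped (none was saturated). Log2 signals were scaled to each array's 75th percentile and averaged over spots of a probe. Kept were probes well above background on 4 or more of 8 arrays, and a gene was its brightest probe. Names came from RefSeq (GRCm38.p6, names only): 32994 probes matched by main identifier, 895 by another, 9462 by symbol and 489 by older symbol, and 12765 kept the file's name. MHCII-high and MHCII-low were compared with limma 3.58.1 in R 4.3.3 (lmFit, eBayes, two-sided, no covariate), tested on simulated data, and other steps used Python 3.11.15. The members and lists were chosen with earlier results of these data known. Named were the 6 genes, genes of each list past the threshold (at most 4 per direction), all members of lists of 8 or fewer, and the 3 nearest genes per member. Of the marker genes so named, a selection is printed. A further marker list is not reported here. Alternatives were slide row and label number as blocks, normexp (offset 50), quantile, array-median scaling, the series table, other filters, mean of probes, array weights and leaving out each array.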

Additional observations from a re-analysis of the deposited data

Results flagged for a closer look

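In 4 of 18 groups of 4 arrays (9 probes in 2 fractions), 1 sample lay far from the other 3, with a gap to its neighbour, as a share of the group's range, past Dixon's critical value at the 95% level. Chance gives this in about 1 in 20 groups. For March1 probe A_55_P2131979, MHCII-low 20442 was the highest, with a gap of 0.901 of the range. For March8 probe A_55_P2076303, MHCII-high 20442 was the lowest (0.837). For Ctss, MHCII-high 20435 was the highest (0.881), although the whole group spans only 5.12 to 5.29. For Ifi30, MHCII-low 20439 was the lowest (0.882).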

How the results depend on the processing

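Genes past the threshold numbered 465 with the slide row as a block, 810 with the label number as a replicate block and 556 to 1158 with 1 array left out (556 and 775 without MHCII-high 20439 and 20442, and 726, 866, 820 and 823 without MHCII-low 20435, 20436, 20439 and 20442). Under the other settings there were 1075 to 1906. Of 19 genes past it in the class II lists, 8 passed with the row block, 10 with the number block and 8 to 15 with 1 array left out (8 without MHCII-low 20435, 9 without MHCII-high 20439).

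March8 stayed below 0 throughout and passed with normexp at -0.77 (limma adjusted p = 0.0195), quantile normalization at -0.74 (0.0402), the series table at -0.73 (0.0409), probes above background on all 8 arrays at -0.76 (0.0359), the mean of its probes at -1.16 (0.0173) and array weights at -0.73 (0.0278). It passed with its dimmest probe at -1.75 (0.0209), added after seeing the data, but not with the row block (0.119), the number block (0.144), array-median scaling (0.0762) or no filter (0.0674). With 1 array left out it was -0.87 to -0.65, past the threshold only without MHCII-low 20436 (0.0436). Within row 2, March8 was -1.14 and Cd83 0.24. Cd83 did not pass in any setting (adjusted p 0.0673 to 0.337).

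Signs turned for March1 with its other probe (0.34, added after seeing the data) and with 1 array left out (-0.20 to 0.0769), and for Ifi30 with 1 left out (-0.0112 to 0.13). Within slide row 2 Ifi30 was at -0.0134. Turns of genes other than the 6 within a slide row are not listed. Other turns, all of genes short of the threshold, were Slc3a2 with the row block (-0.072), array-median scaling (-0.0698) and array weights (-0.0376), Fas (-0.42) and Bcl3 (-0.0187) with the mean of probes, Cd55 with the mean of probes (0.0093) and array weights (0.0397), Il10ra with array weights (-0.0272), and Stat3 with array-median scaling (-0.0398) and array weights (-0.0502). With 1 array left out the ranges were -0.0595 to 0.0544 for Slc3a2, -0.17 to 0.0065 for Cd44, -0.0136 to 0.0852 for Stat3 and -0.0086 to 0.18 for Bcl3. The causes were not tested.

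March1 minus March8 was 0.62 (exact permutation p = 0.188) and Cd83 minus March1 0.62 (p = 0.0625, the smallest possible) with the row block. With the number block they were 0.73 and 0.57 (exact permutation p = 0.125 for both, the smallest possible), and with 1 array left out 0.50 to 0.85 and 0.51 to 0.67 (p up to 0.0571). Same-numbered arrays deviated together at r of 0.188, 0.127, 0.21 and 0.0834 for 20435, 20436, 20439 and 20442. Each array correlated best with its own number in the other fraction, a hint from the data that the samples are paired. What the numbers mark is not stated, and the main comparison was not paired, so its p-values leave out any such pairing. With the number as a block, 810 genes passed and the March8 limma adjusted p was 0.144. In the main comparison the smallest difference past the threshold was 0.56.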
